A study of Mus musculus with 18 samples.

Results

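The mitochondrial protein import machinery was described here in muscle of mice that lack the transcriptional coactivator PGC-1β in muscle fibers and of their controls, both fed and fasted. Its genes were taken by name: the 25 genes of the table whose symbol starts with Tomm or Timm and a number, and 10 named partners (Samm50, Mtx1, Mtx2, Pam16, Grpel1, Grpel2, Pmpca, Pmpcb, Chchd4 and Gfer). These are 35 of 46983 genes measured, and the naming rule uses no expression value. The groups were 5 fasted MKO, 4 fasted WT, 5 fed MKO and 4 fed WT mice, with 1 library each. MKO mice carry a floxed PGC-1β gene, Ppargc1b, from which Cre under the human skeletal actin promoter removes exons in skeletal muscle fibers, so other cells of the tissue keep the gene. WT mice carry the floxed gene without Cre. All were adult male mice on the C57Bl6/J background, and the fasted groups had no food for 24 h. Sample titles give quadriceps as the muscle, whereas the study's supplementary methods give Gastrocnemius.

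Nearly all proteins of mitochondria are made in the cytosol and enter through the TOM complex of the outer membrane, whose receptors Tomm20, Tomm22 and Tomm70a hand precursors to the channel protein Tomm40. From there the routes part. Proteins with a presequence cross the inner membrane through the TIM23 complex, are pulled in by a motor and lose the presequence to the processing peptidase, carriers are guided by small TIM chaperones to the TIM22 complex, barrel proteins are built in by Samm50 and the metaxins, and small proteins with cysteine pairs are oxidized and trapped between the membranes by Chchd4 and Gfer.

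Of all these genes, Gfer differed most between the genotypes and Timm10 most between the feeding states. Gfer, the sulfhydryl oxidase that keeps Chchd4 oxidized, averaged 29 ± 2.43 TPM (SD, n = 5) and 12.9 ± 3.75 TPM (SD, n = 4) in fasted MKO and WT muscle, and 24.1 ± 2.28 TPM (SD, n = 5) and 13.6 ± 1.18 TPM (SD, n = 4) in fed MKO and WT muscle. Timm10, a small TIM chaperone that carries hydrophobic precursors between the membranes, rose with fasting to 18.3 ± 4.9 TPM (SD, n = 5) in MKO muscle, against 8.95 ± 2.28 TPM (SD, n = 5) in fed MKO muscle. In fasted WT muscle it stood at 21.1 ± 2.33 TPM (SD, n = 4), against 9.44 ± 1.92 TPM (SD, n = 4) in fed WT muscle. In WT muscle, fasting also lowered the channel subunits Timm22, Timm17a, Timm17b and Timm23, the receptor Tomm22 and the second channel gene Tomm40l. These are among 10 import genes (31.2%) that fell there, beside 20.7% of all genes. Timm22 and Tomm40l fell in MKO muscle too, and no import gene differed between the genotypes in its response to fasting by the interaction test. On the second scale described below, the WT falls of Timm17a, Timm23, Tomm22 and Tomm40l were not called without a filter on low values.

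All values are TPM, the share of a gene in its library's transcripts after division by length. Changes were tested on log2(TPM + 0.1) with limma in 1 fit of all 18 libraries, over the 12111 genes that reached 0.5 TPM in 4 or more libraries, and a call needed a p below 0.05 after Benjamini-Hochberg adjustment. Each test was run on TPM as deposited and again after the median log2 value of the tested genes was taken off each library, which is written here as relative to the median gene. Both are given because transcripts of the mitochondrial genome filled 61.45 to 67.93% of the TPM in fasted MKO and 70.76 to 81.28% in fasted WT muscle, and 67.35 to 70.4% in fed MKO and 74.27 to 74.95% in fed WT muscle. The median of all genes' log2 changes between MKO and WT muscle as deposited was 0.31 in fasted and 0.25 in fed muscle. Fasted WT replicate 4 stood apart with the highest mitochondrial share. There, 26 of the 32 tested import genes were below the average of fasted WT replicates 1 to 3 as deposited, and 27 were above it relative to the median gene. Gene-level Ppargc1b was 0.42 to 1.11 TPM in fasted MKO and 0.73 to 1.47 TPM in fasted WT muscle, and 1.76 to 2.35 TPM in fed MKO and 1.45 to 2.05 TPM in fed WT muscle. This level also counts the transcript that lacks the removed exons and does not check the labels. Markers of muscle fibers (Ckm, Acta1, Des, Mb and Ttn) summed to 40400 to 52500 TPM in fasted MKO and 20300 to 33000 TPM in fasted WT muscle, and to 34200 to 39300 TPM in fed MKO and 30300 to 33800 TPM in fed WT muscle. These sums did not overlap between the genotypes in either state, and the lowest, 20300 TPM, was that of fasted WT replicate 4. Of the 5 markers, 3 were called higher in fasted MKO muscle as deposited, beside 38.9% of all genes, and none relative to the median gene, beside 2.64%. None was called in fed muscle, beside 4.87% of all genes higher as deposited. In bulk muscle, fewer cells of a type and less RNA per cell cannot be told apart. Labels call the replicates biological, and read depth is unknown from TPM.

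Of the 35 genes, 32 passed the filter on low values. Tomm6os, the antisense gene of Tomm6, reached at most 0.2 TPM, Tomm20l was at 0 TPM apart from 0.15 TPM in 1 fed MKO library, and Timm8a2 was listed at 0 in all 18 libraries. Over all libraries the mean level ran down to 2.01 TPM for Timm10b. The highest were Timm23 with 94.7 TPM, the channel protein of the presequence route, Timm8b with 86.0 TPM and Samm50 with 55.2 TPM. Tomm40, which forms the pore that nearly all precursors cross, averaged 5.06 TPM, below its receptors Tomm22 (30.8 TPM), Tomm70a (25.1 TPM) and Tomm20 (21.5 TPM). In every library the receptors lay above Tomm40, as the lowest receptor value was 18.73 TPM and the highest Tomm40 value 6.4 TPM.

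Between the genotypes in fasted muscle, 18 of 32 import genes (56.2%) were higher in MKO than in WT as deposited and none was lower, beside 38.9% of all tested genes higher and 0.528% lower. Before adjustment, 19 (59.4%) had a p under 0.05 upward and 0 downward, beside 50.0% and 0.966% of all genes. Their median change was 0.28, against 0.31 for all genes. Fasted MKO libraries lay above all fasted WT libraries for 10 import genes (31.2%), beside 22.6% of all genes. They lay below them for 0 import genes, beside 0.264% of all genes. Relative to the median gene, only Gfer was higher and none was lower, beside 2.64% of all genes higher and 2.54% lower, and before adjustment 3 (9.38%) had a p under 0.05 upward and 7 (21.9%) downward, beside 10.1% and 10.8%. When TPM were recomputed without the genes of the mitochondrial genome, Gfer stayed the only import gene called higher and 6 were called lower (Timm23, Timm44, Timm10, Mtx2, Tomm40l and Samm50), beside 1.29% of all genes higher and 7.01% lower. In that setting 13 of the 18 genes called higher had a negative change, down to -0.23 for Tomm20 and Tomm70a, and the median change of all genes was -0.13. Without fasted WT replicate 4, 9 import genes were called as deposited, beside 23.3% of all genes higher and 1.03% lower. The count of higher genes in fasted muscle thus differed between the scales, while Gfer was called on each.

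In fed muscle, Gfer and Pam16 were higher in MKO than in WT as deposited (2 of 32, 6.25%, beside 4.87% of all genes) and none was lower (0.182% of all genes), and before adjustment 9 (28.1%) had a p under 0.05 upward and 1 (3.12%) downward, beside 35.8% and 0.859% of all genes. The fed MKO libraries lay above all fed WT libraries for 9 import genes (28.1%) and below them for Timm23 (3.12%), beside 26.8% and 0.495% of all genes, and of these 10 genes Gfer alone was called as deposited. Without fasted WT replicate 4, which enters this comparison only through the shared variance and the filter, 8 were called higher and 1 lower, beside 32.8% and 0.62% of all genes. Relative to the median gene, Gfer was higher and Timm23 was lower, beside 0.289% of all genes higher and 0.809% lower. On this scale 26 of 32 import genes had a negative change, at an unadjusted p under 0.05 14 (43.8%) were lower and 1 (3.12%) higher, beside 8.65% and 3.61% of all genes, and the median was -0.22, against -0.02 for all genes. The 36 nuclear subunits of NADH dehydrogenase had a median of -0.33 on the same scale (4 called lower, none higher), and the 77 mitochondrial ribosomal proteins one of -0.12 (none called).

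**Figure D1:**
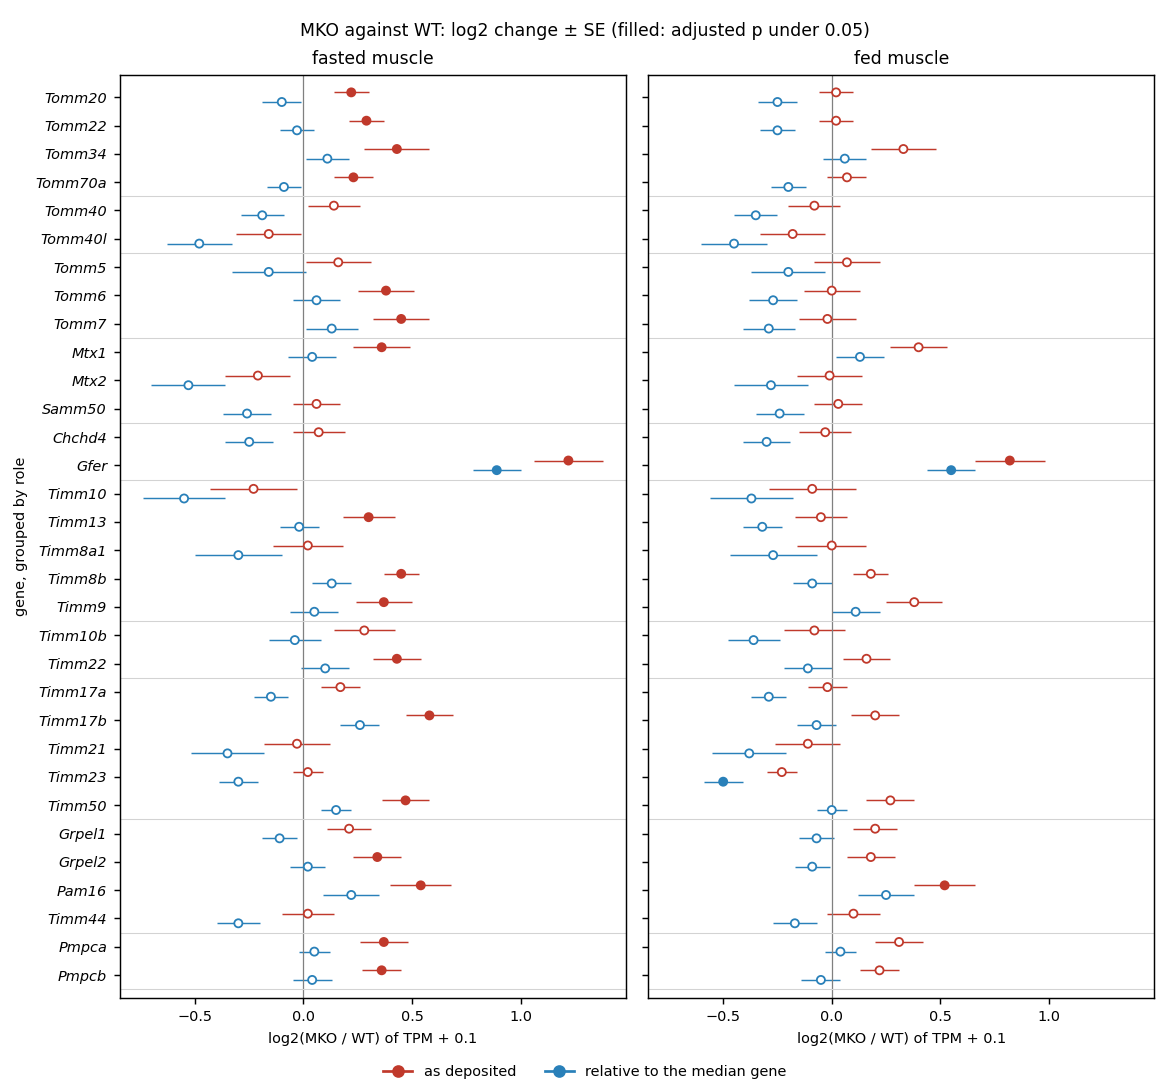
Log2 change of the 32 tested import genes between MKO and WT muscle (x axis, log2 of TPM + 0.1) in fasted (left) and fed muscle (right), with bars of 1 SE and genes grouped by role from receptors at the top to processing peptidase at the bottom. As deposited (red) most genes lie to the right of 0 in fasted muscle and 18 are called (filled points), while relative to the median gene (blue) Gfer alone is called there, and Gfer and Timm23 in fed muscle.

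With fasting, 1 of 32 import genes rose in WT muscle and 10 fell as deposited (31.2%), beside 15.3% of all genes higher and 20.7% lower. Relative to the median gene 3 rose and 12 fell, beside 19.9% higher and 24.6% lower. In MKO muscle 2 rose and 3 fell as deposited, beside 18.1% and 15.8% of all genes, and 3 rose and 4 fell relative to the median gene, beside 20.2% and 22.7%. These counts relative to the median gene rested on the filter. With no filter 10 rose and none fell in MKO muscle, beside 18.2% and 6.16% of all genes, and 3 rose and 3 fell in WT muscle, beside 14.3% and 8.01%, and the median change of all genes was 0.12 in each. The 4 falls lost in MKO muscle were those of Grpel2 (-0.13), Timm17a (-0.05), Timm22 (-0.14) and Tomm40l (-0.38). In WT muscle 9 falls were lost with no filter on this scale (Pmpcb, Timm13, Timm17a, Timm23, Timm50, Timm8b, Tomm22, Tomm40l and Tomm7). The median change in WT muscle was -0.15 for the import genes and -0.06 for all genes, and in MKO muscle -0.00 and 0.01. Fasted WT libraries lay below all fed WT libraries for 10 import genes (31.2%) and above them for 1 (3.12%), beside 17.9% and 8.14% of all genes. In MKO muscle these numbers were 0 and 1 (3.12%), beside 12.8% and 17.2%. Without fasted WT replicate 4, 11 genes were called in MKO muscle (7 higher, 4 lower, beside 23.5% and 19.1% of all genes) and 14 in WT muscle (4 higher, 10 lower, beside 25.3% and 18.3%) as deposited. These fasting comparisons each share libraries with the genotype comparisons. No import gene differed between the genotypes in its response to fasting by the interaction test in limma, on either scale, beside 0.033% of all genes as deposited and 0.116% relative to the median gene. At an unadjusted p under 0.05, 6 import genes (18.8%) had a positive interaction as deposited, beside 7.15% of all genes, and 5 (15.6%) relative to the median gene, beside 7.3%. None had a negative one, beside 1.96% and 4.19% of all genes.

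The oxidative trap between the membranes is run by Chchd4, which puts disulfide bonds into incoming proteins, and by Gfer. Gfer (chromosome 17, 24693187 to 24696156, minus strand, GRCm38) had 28.97, 32.4, 26.3, 27.1 and 30.1 TPM in fasted MKO muscle, against 16.5, 13.2, 14.2 and 7.63 TPM in fasted WT muscle. In fed muscle it had 25.6, 23.98, 27.03, 21.4 and 22.5 TPM in MKO, against 12.2, 14.4, 14.8 and 13.2 TPM in WT. Every MKO library was above every WT library in both feeding states, and the lowest value was that of fasted WT replicate 4. The change between MKO and WT was 1.22 ± 0.16 (SE, adjusted p = 0.000103) in fasted muscle as deposited, and 0.89 ± 0.11 (SE, adjusted p = 0.000168) relative to the median gene. In fed muscle it was 0.82 ± 0.16 (SE, adjusted p = 0.0126) as deposited and 0.55 ± 0.11 (SE, adjusted p = 0.0195) relative to the median gene. Without fasted WT replicate 4 the fasted change was 0.98 ± 0.10 (SE, adjusted p = 1.39e-05), and with TPM recomputed without the mitochondrial genome it was 0.77 ± 0.09 (SE, adjusted p = 5.07e-05). On the scale relative to the median gene the fed call was lost without fed WT replicate 1 (adjusted p = 0.0601) or 4 (0.0728), without fed MKO replicate 1 (0.0524) and with no filter (0.101). The size of the Gfer difference did not differ detectably between feeding states (interaction 0.40 ± 0.22 (SE), adjusted p = 0.63). Fasting itself gave no call for Gfer, with 0.27 ± 0.15 (SE, adjusted p = 0.173) in MKO and -0.13 ± 0.16 (SE, adjusted p = 0.558) in WT muscle, though without fasted WT replicate 4 the MKO change was called (adjusted p = 0.0174).

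Chchd4, the partner that Gfer oxidizes, gave no call in any comparison on either scale. It had 4.39, 3.42, 4.05, 3.97 and 4.18 TPM in fasted MKO muscle, against 4.62, 3.86, 3.49 and 3.36 TPM in fasted WT muscle. In fed muscle it had 3.56, 4.17, 4.87, 4.10 and 4.81 TPM in MKO, against 4.06, 4.04, 4.27 and 5.20 TPM in WT. These groups overlapped, and no change passed the test, with 0.07 ± 0.12 (SE, adjusted p = 0.665) in fasted and -0.03 ± 0.12 (SE, adjusted p = 0.84) in fed muscle as deposited. Among 15 substrates and twin-cysteine proteins of this route, 4 were higher in fasted MKO than in fasted WT muscle as deposited, a share below the 38.9% of all genes (Chchd1, 0.47; Cox19, 0.46; Cmc1, 0.45; Chchd5, 0.47 on the log2 scale) and none relative to the median gene. Cox6b1, a cytochrome c oxidase subunit with twin cysteine motifs, was lower in MKO than in WT muscle relative to the median gene, by a log2 change of -0.46 ± 0.11 (SE, adjusted p = 0.022) in fasted and -0.61 ± 0.11 (SE, adjusted p = 0.00808) in fed muscle. With fasting, Cmc2, a factor of cytochrome c oxidase assembly, fell in both genotypes, by -0.57 ± 0.12 (SE, adjusted p = 0.00157) in MKO and -0.53 ± 0.14 (SE, adjusted p = 0.00568) in WT muscle as deposited.

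The bases just before the start of Gfer are shown because it is the import gene with the clearest genotype difference. They are the part of the 250 bases before the RefSeq start that lies in no annotated exon (chr17:24696157-24696233, minus strand, GRCm38.p6), and exons of the neighbouring gene Noxo1 lie further upstream in the window.
Gfer: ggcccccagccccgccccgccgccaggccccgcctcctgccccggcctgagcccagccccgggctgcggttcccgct
These 77 bases hold none of the 4 motifs that were searched and are named further down, so nothing in them is in capitals, and the whole window of 300 bases had 80.3% G and C.

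**Figure D2:**
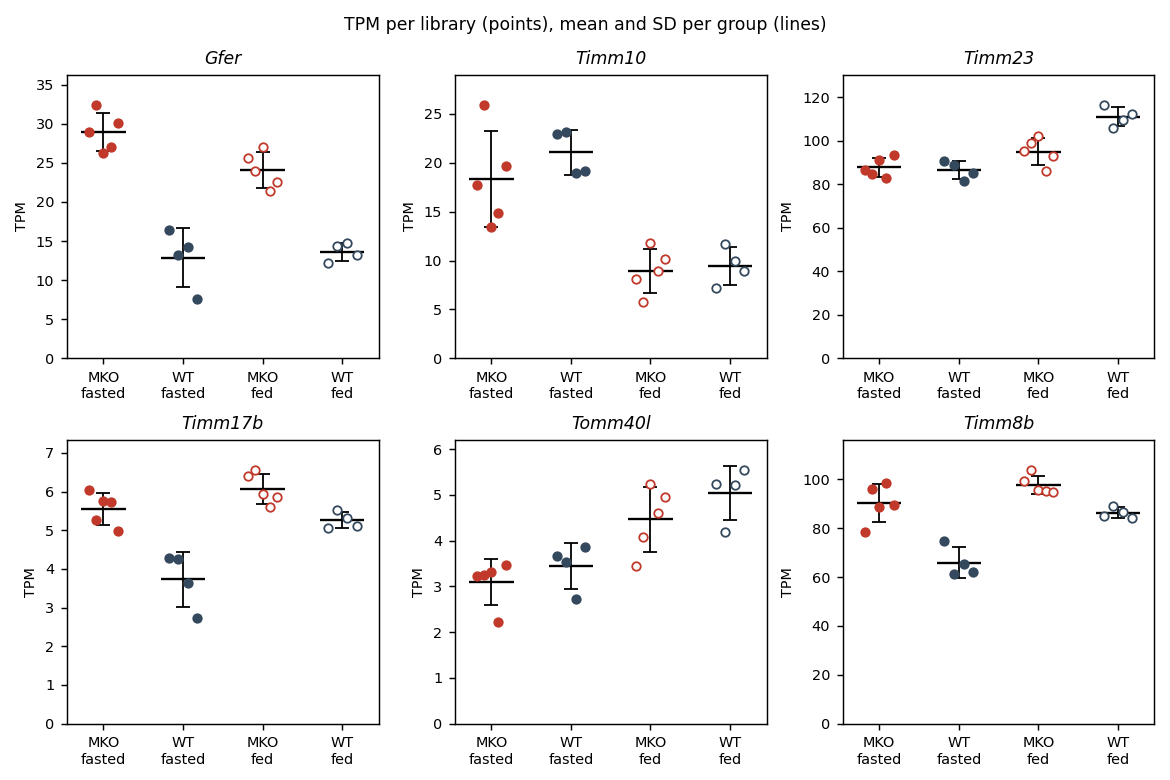
TPM (y axis, from 0) of 6 import genes in each library (points; filled fasted, open fed; red MKO, dark WT), with the mean and SD of each group as lines. Gfer lies between 26.31 and 32.39 TPM in fasted MKO and between 7.63 and 16.46 TPM in fasted WT muscle, Timm10 is higher in all fasted than in all fed libraries, and Timm23 is highest in fed WT muscle.

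Small TIM chaperones form ring-shaped hexamers, one of Timm9 and Timm10 and one of Timm8 and Timm13 proteins, that shield hydrophobic precursors in the space between the membranes. Timm10 (chromosome 2, 84826997 to 84830213, plus strand) had 17.8, 25.9, 13.4, 14.9 and 19.7 TPM in fasted MKO muscle, against 8.09, 5.73, 11.8, 8.95 and 10.2 TPM in fed MKO muscle. In WT muscle it had 22.98, 23.2, 18.98 and 19.1 TPM when fasted, against 7.17, 11.7, 9.96 and 8.91 TPM when fed. All fasted libraries lay above all fed libraries, within and across genotypes. The change with fasting was 1.03 ± 0.19 (SE, adjusted p = 0.00032) in MKO and 1.16 ± 0.21 (SE, adjusted p = 0.000248) in WT muscle as deposited, and it passed the test on both scales in every alternative run. The interaction was -0.14 ± 0.28 (SE, adjusted p = 0.929). Between the genotypes Timm10 was not called as deposited, with -0.23 ± 0.20 (SE, adjusted p = 0.343) in fasted and -0.09 ± 0.20 (SE, adjusted p = 0.712) in fed muscle. Relative to the median gene its change in fasted muscle was -0.55 and was not called. With TPM recomputed without the mitochondrial genome, Timm10 was called lower in fasted MKO muscle (-0.69 ± 0.19 (SE, adjusted p = 0.0317)). The median change of all genes in that setting was -0.13.

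Timm9, its partner in the hexamer, had 11.03, 11.9, 11.2, 12.8 and 10.04 TPM in fasted MKO and 10.6, 10.5, 7.71 and 6.93 TPM in fasted WT muscle. The fed values were 13.4, 10.1, 13.2, 11.4 and 12.7 TPM in MKO and 9.54, 9.86, 8.43 and 9.39 TPM in WT muscle. Timm9 gave no call with fasting (-0.09 ± 0.12 (SE, adjusted p = 0.602) in MKO, -0.08 ± 0.13 (SE, adjusted p = 0.676) in WT), so the ratio of Timm10 to Timm9 was higher in fasted muscle. It ran from 1.16 to 2.17 (median 1.61) in fasted MKO and from 2.16 to 2.76 (median 2.33) in fasted WT muscle, against 0.568 to 0.893 (median 0.783) in fed MKO and 0.751 to 1.19 (median 1.07) in fed WT muscle. This ratio was chosen after its values were seen and was not tested. Between the genotypes Timm9 was called higher in fasted MKO muscle as deposited (0.37 ± 0.13 (SE, adjusted p = 0.0286)), but not without fasted WT replicate 3 (adjusted p = 0.0809) or 4 (0.114) or fasted MKO replicate 2 (0.0581) or 4 (0.061), and not relative to the median gene (adjusted p = 0.856).

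Timm8b, the chaperone with the highest level, had 78.5, 95.97, 88.8, 98.5 and 89.3 TPM in fasted MKO muscle, against 74.9, 61.1, 65.2 and 62.2 TPM in fasted WT muscle. Fed values of Timm8b were 99.3, 103.7, 95.7, 95.02 and 94.9 TPM in MKO, against 84.9, 89.2, 86.8 and 84.1 TPM in WT. MKO and WT libraries did not overlap in either state, yet only the fasted difference was called as deposited (0.45 ± 0.08 (SE, adjusted p = 0.00099)), and it was 0.13 ± 0.09 (SE) and not called relative to the median gene. Fasting lowered Timm8b in WT muscle (-0.39 ± 0.09 (SE, adjusted p = 0.00158)) and gave no call in MKO muscle (-0.12 ± 0.08 (SE, adjusted p = 0.253)). With TPM recomputed without the mitochondrial genome it was called lower in MKO muscle too (-0.24, adjusted p = 0.0392). Timm13, the partner of Timm8b, was 14.25 to 26.25 TPM in all libraries. It was called higher in fasted MKO than in fasted WT muscle as deposited (0.30 ± 0.12, SE, adjusted p = 0.0437), a call lost without fed WT replicate 2, 3 or 4, fed MKO replicate 1 or 5, fasted WT replicate 2, 3 or 4, or fasted MKO replicate 1, 2, 3 or 5 (adjusted p = 0.0504 to 0.152). The X-linked Timm8a1, the mouse counterpart of the deafness dystonia gene, was 5.63 to 11.21 TPM in all libraries with no call on either scale. Its highest value was that of fasted WT replicate 4, and without that library it was called lower with fasting in WT muscle relative to the median gene (-0.42, adjusted p = 0.00917).

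The sequences before the starts of Timm10 and Timm8b are shown because these genes moved with fasting in opposite directions in WT muscle. Both are the bases outside annotated exons within the 250 before the RefSeq start (GRCm38.p6, plus strand), at chr2:84826771-84826996 for Timm10 and chr9:50603813-50603900 for Timm8b, and capitals mark an ETS motif.
Timm10: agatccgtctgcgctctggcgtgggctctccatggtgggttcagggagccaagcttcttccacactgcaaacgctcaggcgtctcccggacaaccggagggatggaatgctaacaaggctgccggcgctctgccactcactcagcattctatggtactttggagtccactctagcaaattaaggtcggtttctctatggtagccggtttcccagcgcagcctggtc
Timm8b: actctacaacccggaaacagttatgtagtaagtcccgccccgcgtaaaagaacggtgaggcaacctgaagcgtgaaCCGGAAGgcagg
The capitals in Timm8b begin 12 bases before its RefSeq start, and an exon of Sdhd, a subunit of succinate dehydrogenase, lies further upstream in the same window.

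The TIM22 complex inserts carriers into the inner membrane through its channel Timm22, with Timm10b bound at its surface. Timm22 had 6.87, 7.43, 6.28, 5.46 and 5.52 TPM in fasted MKO and 4.64, 4.66, 4.91 and 4.37 TPM in fasted WT muscle. The fed values were 7.66, 7.65, 8.98, 7.01 and 7.08 TPM in MKO and 6.24, 7.03, 7.53 and 6.54 TPM in WT muscle. Fasting lowered it in MKO (-0.28 ± 0.10 (SE, adjusted p = 0.0334)) and in WT muscle (-0.54 ± 0.11 (SE, adjusted p = 0.000804)), where fasted and fed libraries did not overlap. The MKO call was lost without any one of fed MKO replicates 1, 2 and 3 or fasted MKO replicates 3, 4 and 5 (adjusted p up to 0.0998). In fasted muscle it was higher in MKO than in WT as deposited (0.43 ± 0.11 (SE, adjusted p = 0.00572)), with no overlap of the libraries, but with 0.10 ± 0.11 (SE, adjusted p = 0.631) relative to the median gene and -0.02 with TPM recomputed without the mitochondrial genome. Timm10b, at 2.35, 2.97, 1.96, 2.63 and 2.21 TPM in fasted MKO and 2.06, 1.47, 1.49, 1.78 and 1.92 TPM in fed MKO muscle, rose with fasting in MKO muscle (0.45 ± 0.13 (SE, adjusted p = 0.0125)). In WT muscle it was 2.30, 1.75, 2.22 and 1.64 TPM when fasted and 1.87, 1.71, 1.72 and 2.08 TPM when fed, with no call (0.09 ± 0.15 (SE, adjusted p = 0.679)). The annotated span of Timm10b overlaps Arfip2 on the opposite strand, and whether the counting used strand is not given in any source used here. The same holds for Timm8b (Nkapd1), Grpel1 (Tada2b), Pmpca (Inpp5e), Tomm70a (Nit2), Pam16 (Glis2) and Tomm34 (Stk4), whose spans overlap the gene in parentheses.

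The TIM23 complex is the gate for presequence proteins, built from the channel proteins Timm23 and Timm17, of which Timm17a and Timm17b are alternative forms, and the receptor Timm50. Timm23 (chromosome 14, 32180162 to 32201898, minus strand) had 86.8, 84.5, 91.2, 83.1 and 93.7 TPM in fasted MKO and 90.8, 89.04, 81.7 and 85.1 TPM in fasted WT muscle. In fed muscle it had 95.2, 99.2, 102, 85.96 and 92.8 TPM in MKO, against 116.5, 105.8, 109.7 and 112.4 TPM in WT. Fed WT libraries were the highest of all 18, and no fed MKO library reached them. Relative to the median gene Timm23 fell in fed MKO muscle, with -0.50 ± 0.09 (SE, adjusted p = 0.00835), in every alternative run on that scale, whereas as deposited the difference did not pass the test (-0.23 ± 0.07 (SE, adjusted p = 0.0649)). Without fasted WT replicate 4, which is in neither group, the difference as deposited was called (adjusted p = 0.0159). In fasted muscle the change was 0.02 ± 0.07 (SE, adjusted p = 0.845) as deposited and -0.30 ± 0.09 (SE, adjusted p = 0.0602) relative to the median gene. Fasting lowered Timm23 in WT muscle (-0.36 ± 0.08 (SE, adjusted p = 0.00149)) without overlap, and gave -0.11 ± 0.07 (SE, adjusted p = 0.23) in MKO muscle. The interaction, 0.25 ± 0.11 (SE), was not called (adjusted p = 0.5).

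Timm17a had 12.1, 12.9, 11.7, 11.8 and 11.2 TPM in fasted MKO and 12.2, 10.8, 9.85 and 9.64 TPM in fasted WT muscle, and its fed values were 12.6, 13.03, 15.2, 13.1 and 14.5 TPM in MKO and 13.6, 13.3, 14.8 and 13.7 TPM in WT muscle. Timm17b, encoded on the X chromosome, had 6.04, 5.27, 5.75, 5.72 and 4.98 TPM in fasted MKO, against 4.27, 4.26, 3.64 and 2.74 TPM in fasted WT muscle. In fed muscle Timm17b had 6.40, 6.55, 5.94, 5.60 and 5.85 TPM in MKO, against 5.07, 5.52, 5.32 and 5.12 TPM in WT. Both fell with fasting in WT muscle without overlap of the libraries, with -0.39 ± 0.09 (SE, adjusted p = 0.00329) for Timm17a and -0.51 ± 0.12 (SE, adjusted p = 0.00257) for Timm17b. In MKO muscle Timm17a was called lower relative to the median gene (-0.25 ± 0.07 (SE, adjusted p = 0.011)), a call lost with no filter (-0.05, adjusted p = 0.705). As deposited it was called lower there without fasted WT replicate 4 (-0.19, adjusted p = 0.0392) and with TPM recomputed without the mitochondrial genome (-0.32, adjusted p = 0.00564). Timm17b gave -0.13 ± 0.11 (SE, adjusted p = 0.379) in MKO muscle as deposited. It was called lower there without the mitochondrial genome (-0.25, adjusted p = 0.021), and relative to the median gene with a filter of 2 TPM (-0.21, adjusted p = 0.0368). Between the genotypes Timm17b was higher in fasted MKO than in fasted WT muscle as deposited (0.58 ± 0.11 (SE, adjusted p = 0.00148)) with no overlap, and was not called relative to the median gene (0.26 ± 0.09 (SE, adjusted p = 0.105)).

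Timm50 had 12.8, 12.8, 10.8, 9.43 and 11.3 TPM in fasted MKO and 9.85, 8.08, 8.12 and 6.89 TPM in fasted WT muscle, and 10.8, 11.7, 11.5, 10.99 and 12 TPM in fed MKO and 10.3, 8.55, 9.04 and 9.97 TPM in fed WT muscle. It was called higher in fasted MKO muscle as deposited (0.47 ± 0.11 (SE, adjusted p = 0.00395)), although 1 MKO library lay within the WT range, and with fasting it was called lower in WT muscle only relative to the median gene (-0.21 ± 0.07 (SE, adjusted p = 0.0292)), a call lost without fed WT replicate 1 or 4 or fasted WT replicate 2 or 3 (adjusted p up to 0.0938). Timm21, which ties TIM23 to the respiratory chain, was 6.08 to 10.7 TPM and gave no call on either scale.

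For Timm23 the exon-free bases before the start (chr14:32201899-32201948, minus strand, GRCm38.p6) lie between it and an exon of Parg, and are shown because Timm23 is the import gene called lower in fed MKO muscle.
Timm23: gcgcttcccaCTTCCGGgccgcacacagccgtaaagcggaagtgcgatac
Capitals mark the reverse complement of the ETS motif, which begins 47 bases before the RefSeq start, and the printed stretch ends a few bases short of that start, where an annotated exon begins.

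The motor that draws presequence proteins into the matrix has Timm44 as its anchor, Pam16 as a brake on the cochaperone, and the exchange factors Grpel1 and Grpel2 for the mitochondrial Hsp70. Pam16 had 12.3, 13.6, 10.6, 11.2 and 10.9 TPM in fasted MKO, against 7.74, 10.2, 7.73 and 6.73 TPM in fasted WT muscle. Its fed values were 10.5, 11.9, 12.3, 11.9 and 9.90 TPM in MKO, against 8.14, 5.85, 9.92 and 7.97 TPM in WT. Only the fasted libraries were apart without overlap, and Pam16 was called higher in MKO muscle as deposited in both states, with 0.54 ± 0.14 (SE, adjusted p = 0.00713) in fasted and 0.52 ± 0.14 (SE, adjusted p = 0.0404) in fed muscle. Neither was called relative to the median gene (0.22 ± 0.13 (SE, adjusted p = 0.349), and 0.25 ± 0.13 (SE, adjusted p = 0.449)), and the fed call was lost without fed WT replicate 2 (adjusted p = 0.129) or 4 (0.0829), without any one fed MKO replicate (0.0559 to 0.0769), without fasted MKO replicate 5 (0.0528), with no filter (0.0682) and with TPM recomputed without the mitochondrial genome (0.546).

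Grpel1 and Grpel2 were called in opposite directions with fasting relative to the median gene. Grpel1 had 14.8, 18.7, 15.6, 13.6 and 16.1 TPM in fasted MKO and 12.3, 12.2, 14.5, 13.5 and 13.6 TPM in fed MKO muscle, and 15.4, 14.2, 12.7 and 12.1 TPM in fasted WT and 12.2, 10.8, 11.1 and 11.8 TPM in fed WT muscle. Grpel1 rose only relative to the median gene, with 0.19 ± 0.07 (SE, adjusted p = 0.039) in MKO and 0.24 ± 0.08 (SE, adjusted p = 0.0239) in WT muscle, and the WT call was lost without fed WT replicate 2 (adjusted p = 0.0509) or 3 (0.0552) or fasted WT replicate 4 (0.0724). The MKO call was lost without fed MKO replicate 1, 2, 4 or 5 or fasted MKO replicate 2, 3 or 5 (adjusted p up to 0.108). Grpel2 had 5.71, 6.47, 5.58, 5.94 and 5.78 TPM in fasted MKO and 6.83, 5.86, 7.63, 7.37 and 8.04 TPM in fed MKO muscle, and 5.44, 5.00, 4.31 and 3.87 TPM in fasted WT and 6.38, 6.43, 5.94 and 6.33 TPM in fed WT muscle. Grpel2 fell in MKO (-0.32 ± 0.07 (SE, adjusted p = 0.002) relative to the median gene) and in WT muscle (-0.44 ± 0.08 (SE, adjusted p = 0.00034)), on both scales in each, though as deposited the MKO call (-0.27 ± 0.10 (SE, adjusted p = 0.0471)) was lost without any one library other than fed MKO replicate 2, fasted WT replicate 1 or 4 or fasted MKO replicate 2 (up to 0.121). The MKO call relative to the median gene was lost with no filter (-0.13, adjusted p = 0.352). Between the genotypes Grpel2 was called higher in fasted MKO muscle as deposited only (adjusted p = 0.0179), without overlap. That call was lost without fasted WT replicate 4 (0.26, adjusted p = 0.0595). Timm44 had 9.22, 12.4, 10.2, 9.42 and 10.5 TPM in fasted MKO and 11.7, 10.6, 10.02 and 8.54 TPM in fasted WT muscle, and 8.84, 7.57, 11.1, 8.53 and 9.16 TPM in fed MKO and 8.98, 8.49, 8.44 and 7.64 TPM in fed WT muscle. Its rise with fasting in WT muscle was called relative to the median gene (0.27 ± 0.10 (SE, adjusted p = 0.0376)) and lost without fed WT replicate 3 (adjusted p = 0.0593) or 4 (0.111) or fasted WT replicate 1 (0.0739), 2 (0.0583) or 4 (0.0771). Between the genotypes in fasted muscle Timm44 was not called relative to the median gene (adjusted p = 0.0738). It was called lower in MKO on that scale with a filter of 2 TPM and without fed MKO replicate 3 (-0.30, adjusted p = 0.0319). With TPM recomputed without the mitochondrial genome it was called lower too (-0.43, adjusted p = 0.0103). Hspa9, the mitochondrial Hsp70 of this motor, rose with fasting in WT muscle as deposited (0.42 ± 0.15, SE, adjusted p = 0.0314). Its inner membrane cochaperones Dnajc19 (-0.49 ± 0.10, SE, adjusted p = 0.000772) and Dnajc15 (-0.56 ± 0.10, SE, adjusted p = 0.000158) fell. Of the 9 import partners in the list that holds these genes, 1 rose and 3 fell in WT muscle, and 1 rose and 2 fell in MKO muscle as deposited, beside 15.3% higher and 20.7% lower of all genes in WT and 18.1% and 15.8% in MKO muscle.

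The processing peptidase, made of Pmpca and Pmpcb, removes the presequence in the matrix. Pmpca had 40.5, 44.3, 39.01, 36.5 and 40.9 TPM in fasted MKO and 38.97, 31.9, 31.7 and 23.8 TPM in fasted WT muscle, and 36.3, 37.6, 37.5, 34.1 and 35.7 TPM in fed MKO and 32.4, 26.1, 30.2 and 28.7 TPM in fed WT muscle. Pmpcb had 16.8, 17.6, 17.1, 15.7 and 17.2 TPM in fasted MKO and 15.4, 11.8, 12.1 and 13.5 TPM in fasted WT muscle, and 17.7, 17.6, 19.4, 18.6 and 18.9 TPM in fed MKO and 17.6, 14.96, 15.4 and 15.3 TPM in fed WT muscle. Both subunits were called higher in fasted MKO than in fasted WT muscle as deposited, with 0.37 ± 0.11 (SE, adjusted p = 0.0161) for Pmpca and 0.36 ± 0.09 (SE, adjusted p = 0.00521) for Pmpcb, and neither relative to the median gene, and without the mitochondrial genome both changes were -0.09. The Pmpca call ended without fasted WT replicate 4 (adjusted p = 0.0506). Pmpcb fell with fasting in WT muscle (-0.27 ± 0.09 (SE, adjusted p = 0.0309)), a call lost without fed WT replicate 1 (adjusted p = 0.109) or fasted WT replicate 2 (0.108) or 3 (0.0924). Of 11 genes for matrix folding and presequence removal, 5 were higher in fasted MKO than in fasted WT muscle as deposited, beside 38.9% of all genes, and none relative to the median gene. Among them Immp1l, an inner membrane peptidase, fell with fasting in WT muscle on both scales (-0.55 ± 0.11, SE, adjusted p = 0.000772 as deposited).

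At the outer membrane, Tomm20, Tomm22 and Tomm70a receive precursors, and the cytosolic Tomm34 was counted with them. Tomm20 had 23.7, 22.7, 23.5, 22.2 and 24.6 TPM in fasted MKO, against 20.9, 20.5, 18.7 and 19.9 TPM in fasted WT muscle. The fed values of Tomm20 were 21.3, 21.2, 23.6, 19.6 and 20.8 TPM in MKO and 20.4, 20.4, 21.6 and 21.6 TPM in WT muscle. Tomm20 was higher in fasted MKO muscle without overlap (0.22 ± 0.08 (SE, adjusted p = 0.0286)), the smallest of the changes called there. Tomm22 had 33.01, 30.7, 30.4, 29.6 and 31.8 TPM in fasted MKO, against 26.5, 27.3, 24.2 and 23.9 TPM in fasted WT muscle. In fed muscle Tomm22 had 33.4, 35, 32.2, 28.9 and 36.9 TPM in MKO and 30.6, 30.8, 34.4 and 34.6 TPM in WT. It was lower in fasted than in fed WT muscle without overlap (-0.35 ± 0.09 (SE, adjusted p = 0.00451)), gave -0.09 ± 0.08 (SE, adjusted p = 0.403) in MKO muscle, and was higher in fasted MKO than in fasted WT muscle as deposited (0.29 ± 0.08 (SE, adjusted p = 0.0145)). With the groups fitted alone, neither the WT fall (adjusted p = 0.0535) nor the difference in fasted muscle (0.076) was called. With TPM recomputed without the mitochondrial genome the latter was -0.17 (adjusted p = 0.291). Tomm70a had 24.8, 28.8, 26.7, 28.7 and 30.6 TPM in fasted MKO and 27.8, 24.3, 22.1 and 21.4 TPM in fasted WT muscle, and 25.2, 22.96, 26.01, 24.03 and 24.6 TPM in fed MKO and 23.7, 23.4, 23.4 and 22.7 TPM in fed WT muscle. Its groups overlapped, and its call in fasted muscle (0.23 ± 0.09 (SE, adjusted p = 0.0477)) was lost without any one library other than replicate 1 of fasted WT or fasted MKO (adjusted p = 0.0528 to 0.118). Tomm34 was 2.56 to 5.9 TPM in all libraries and was called higher in fasted MKO muscle as deposited (0.43, adjusted p = 0.0294). The Tomm20 call was lost without fasted WT replicate 3 (0.078) or fasted MKO replicate 1 (0.0532) or 5 (0.068), and the Tomm34 call without fasted WT replicate 4 (0.133) or fasted MKO replicate 1 (0.063), 2 (0.0679) or 5 (0.0701). All 4 receptors were thus called higher in fasted MKO muscle as deposited, and none relative to the median gene, where their changes ran from -0.10 to 0.11.

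The exon-free bases before the start of Tomm22 (chr15:79670618-79670860, plus strand, GRCm38.p6) are shown as the receptor that fell with fasting in WT muscle.
Tomm22: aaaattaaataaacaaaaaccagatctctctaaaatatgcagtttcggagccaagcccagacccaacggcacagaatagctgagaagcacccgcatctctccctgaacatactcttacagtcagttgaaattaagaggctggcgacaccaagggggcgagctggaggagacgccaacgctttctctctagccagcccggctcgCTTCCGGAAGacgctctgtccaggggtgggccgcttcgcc
Capitals mark 2 overlapping ETS motifs on opposite strands, which begin 47 and 44 bases before the RefSeq start, and this stretch too ends a few bases short of the start.

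The pore gene Tomm40 gave no call on either scale in the fit of all libraries, and its paralog Tomm40l fell with fasting in both genotypes. Tomm40 had 6.40, 6.02, 6.04, 4.20 and 5.62 TPM in fasted MKO and 4.49, 4.56, 4.83, 4.55 and 4.48 TPM in fed MKO muscle, and 6.21, 5.26, 4.39 and 4.68 TPM in fasted WT and 4.88, 4.41, 5.03 and 5.05 TPM in fed WT muscle. Tomm40l had 3.23, 3.24, 3.31, 2.23 and 3.47 TPM in fasted MKO and 3.45, 4.09, 5.23, 4.60 and 4.96 TPM in fed MKO muscle, and 3.67, 3.54, 2.73 and 3.87 TPM in fasted WT and 5.23, 4.20, 5.22 and 5.54 TPM in fed WT muscle. With fasting in MKO muscle the change of Tomm40 was 0.28 ± 0.11 (SE, adjusted p = 0.0541) as deposited and 0.23 ± 0.10 (SE, adjusted p = 0.0623) relative to the median gene. It was called higher there without fasted MKO replicate 4 on both scales (0.39, adjusted p = 0.00631, and 0.31, adjusted p = 0.0121), and as deposited also without fasted WT replicate 1, 3 or 4, with a filter of 2 TPM and with the groups fitted alone (adjusted p = 0.0357 to 0.0499). It was also called relative to the median gene without fasted WT replicate 3 (0.039) or 4 (0.0475) and with no filter (0.00577). The fall of Tomm40l was -0.52 ± 0.14 (SE, adjusted p = 0.00695) in MKO and -0.54 ± 0.15 (SE, adjusted p = 0.00971) in WT muscle, and fasted and fed libraries were apart in WT and overlapped by a single pair of values in MKO muscle. The small subunits of the complex were Tomm5 (12.46 to 25.53 TPM, no call on either scale in the fit of all libraries), Tomm6 (9.74 to 17.3 TPM) and Tomm7 (13.65 to 26.59 TPM). Tomm5 was called lower with fasting in WT muscle without fasted WT replicate 4 (-0.45, adjusted p = 0.0128 as deposited, and -0.57, adjusted p = 0.000984 relative to the median gene), where the change with that library was -0.31 ± 0.15 (SE, adjusted p = 0.128) as deposited. Tomm6 (0.38 ± 0.13, SE, adjusted p = 0.0279) and Tomm7 (0.45 ± 0.13, SE, adjusted p = 0.013) were called higher in fasted MKO muscle as deposited only. The Tomm7 call was lost without fasted WT replicate 4 (adjusted p = 0.0509), and the Tomm6 call without fasted WT replicate 3 (0.0526) or 4 (0.104) or fasted MKO replicate 1 (0.0649) or 2 (0.0564). Tomm7 also fell with fasting in WT muscle (-0.39 ± 0.14, SE, adjusted p = 0.0335), but not without fed WT replicate 1 (0.069) or 2 (0.0978) or fasted WT replicate 3 (0.0828) or 4 (0.0862). The span of Tomm6 overlaps Tomm6os and Usp49 on the opposite strand.

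Samm50, the core of the barrel assembly machinery, was the import gene with the third highest level. It had 58.7, 56.8, 55.6, 52 and 56.2 TPM in fasted MKO and 66.98, 51.6, 46.95 and 50.1 TPM in fasted WT muscle, and 54.5, 51.04, 68.9, 52.1 and 53.3 TPM in fed MKO and 61.6, 46.6, 54.3 and 56.9 TPM in fed WT muscle. Its groups overlapped and none of its 4 changes was called on either scale, though its change in fasted muscle was -0.39 (adjusted p = 0.0429) with TPM recomputed without the mitochondrial genome. Mtx1 was 1.82 to 3.77 TPM and called higher in fasted MKO muscle as deposited (0.36 ± 0.13, SE, adjusted p = 0.0341), but not without fasted WT replicate 3 (adjusted p = 0.0595) or 4 (0.116) or fasted MKO replicate 1 (0.0791), 2 (0.0726) or 5 (0.0598), and Mtx2 was 6.41 to 11.64 TPM with no call on either scale, though relative to the median gene it was called lower in fasted MKO muscle without fasted WT replicate 3 (-0.65, adjusted p = 0.0428) or fed MKO replicate 3 (-0.53, adjusted p = 0.0469). Mtx3, a further metaxin outside the set, fell with fasting in MKO (-0.47 ± 0.12, SE, adjusted p = 0.00513) and in WT muscle (-0.56 ± 0.13, SE, adjusted p = 0.0031). Of 7 measured genes of the MICOS complex that bridges both membranes, 2 fell with fasting in WT muscle as deposited (Minos1 and Apoo) and none rose, beside 20.7% and 15.3% of all genes.

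**Figure D3:**
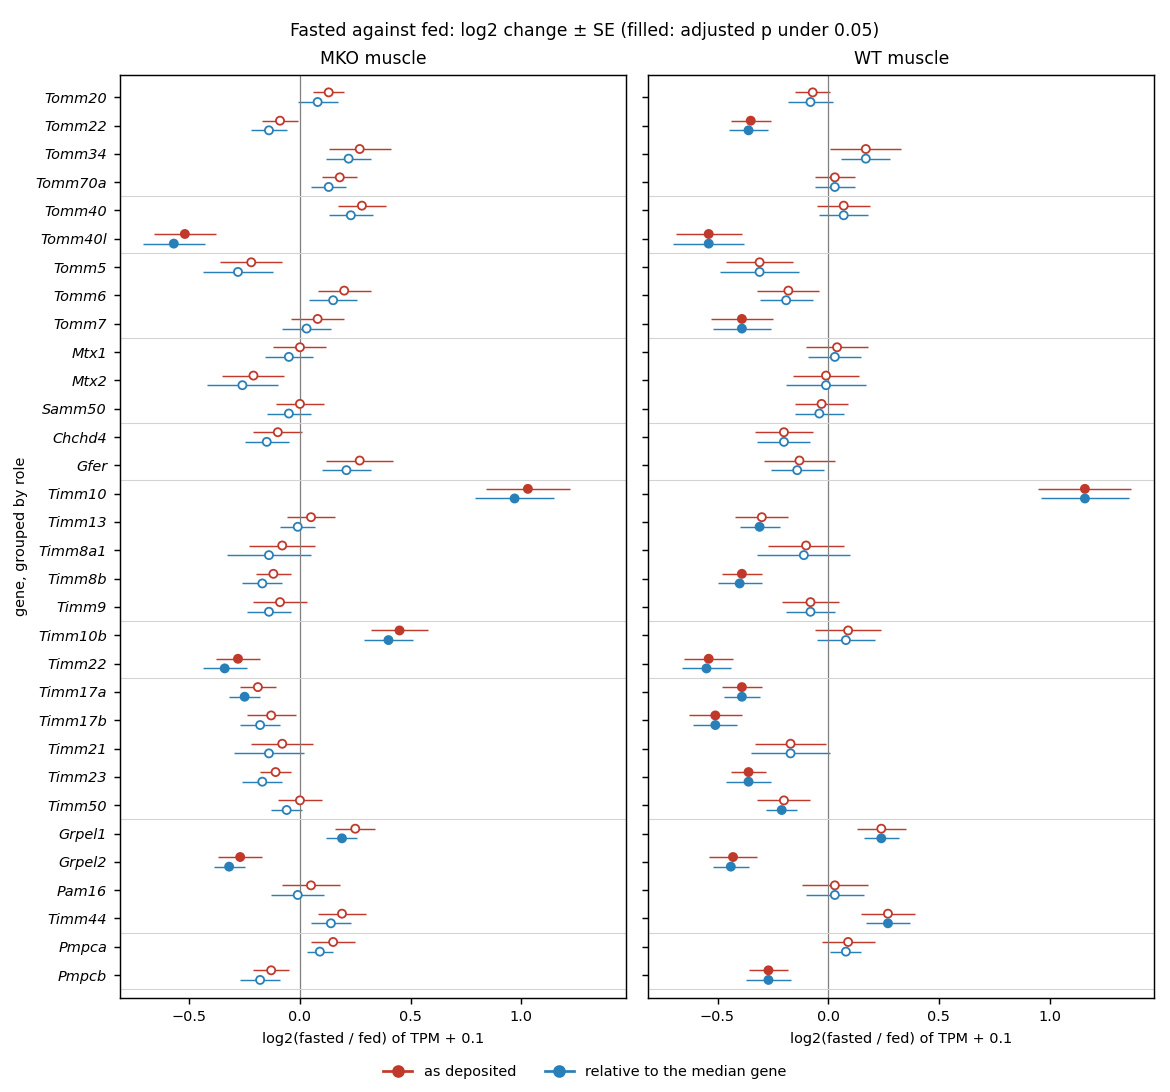
Log2 change of the 32 tested import genes between fasted and fed muscle (x axis, log2 of TPM + 0.1) in MKO (left) and WT (right), as deposited (red) and relative to the median gene (blue), with bars of 1 SE and filled points for adjusted p under 0.05. Timm10 stands far to the right in both genotypes, Tomm40l, Timm22 and Grpel2 are called lower in both, and in WT muscle most TIM23 genes lie to the left of 0.

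Paralog pairs give ratios within a library that do not depend on its scale. Of 20 two-sided exact permutation tests (5 ratios in 4 comparisons), 9 had an unadjusted p under 0.05 and none an adjusted one, where the smallest p possible is 0.0286 for 4 against 4 libraries and 0.00794 for 4 or 5 against 5. Tomm40l over Tomm40 was 0.512 to 0.624 in fasted MKO, against 0.773 to 1.1 in fed MKO muscle (log2 difference -0.80, exact permutation p = 0.00794, adjusted 0.0794). In WT muscle this ratio was 0.597 to 0.831 when fasted, against 0.954 to 1.09 when fed (-0.61, exact permutation p = 0.0286, adjusted 0.0816). Grpel2 over Grpel1 was 0.35 to 0.442 in fasted MKO, against 0.484 to 0.594 in fed MKO muscle (-0.51, exact permutation p = 0.00794, adjusted 0.0794), and 0.326 to 0.357 in fasted WT, against 0.529 to 0.599 in fed WT muscle (-0.67, exact permutation p = 0.0286, adjusted 0.0816). In each of these 4 comparisons the libraries did not overlap. Between the genotypes, Timm17a over Timm17b was 1.98 to 2.42 in fasted MKO, against 2.5 to 3.43 in fasted WT muscle, again without overlap (-0.41, exact permutation p = 0.0159, adjusted 0.0816). In fed muscle it was 1.95 to 2.54 in MKO and 2.38 to 2.76 in WT (-0.22, exact permutation p = 0.0556). Timm10b over Timm10 was 0.0796 to 0.122 in fasted WT, against 0.152 to 0.272 in fed WT muscle (-1.08, exact permutation p = 0.0286, adjusted 0.0816). In MKO muscle its change with fasting was -0.58 (exact permutation p = 0.0476, adjusted 0.106). Between fasted MKO and fasted WT muscle it was 0.51 (exact permutation p = 0.0476, adjusted 0.106). Tomm40l over Tomm40 differed there by -0.29 (exact permutation p = 0.0238, adjusted 0.0816). In these further comparisons the libraries overlapped. Timm8a1 over Timm8b had no comparison with an unadjusted p under 0.05.

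**Figure D4:**
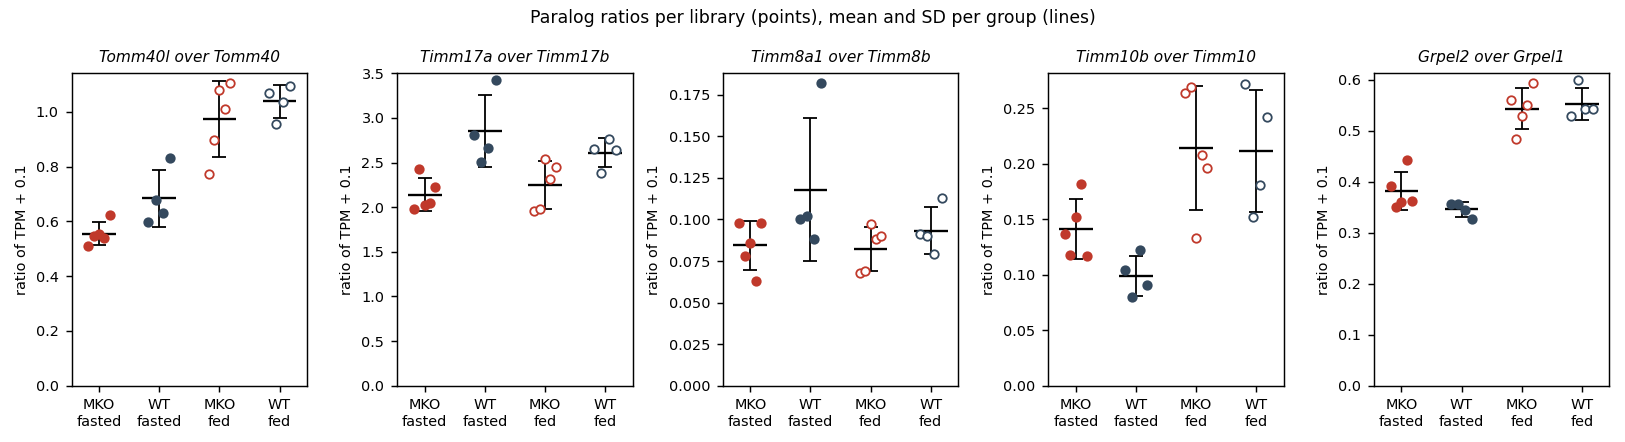
Ratio of TPM + 0.1 (y axis, from 0) for 5 paralog pairs in each library (points; filled fasted, open fed; red MKO, dark WT), with mean and SD per group as lines. The ratios of Tomm40l to Tomm40 and of Grpel2 to Grpel1 are lower in every fasted than in every fed library of the same genotype, and that of Timm17a to Timm17b is lower in fasted MKO than in fasted WT muscle.

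Other cells and fiber types were followed through marker lists. The 8 fast fiber markers summed to 43200 to 56600 TPM in fasted MKO and 17800 to 43400 TPM in fasted WT muscle, and to 35300 to 43500 TPM in fed MKO and 32300 to 37300 TPM in fed WT muscle. Of these 8, 6 were higher in fasted MKO than in fasted WT muscle as deposited, beside 38.9% of all genes, and none relative to the median gene. The 9 slow fiber markers summed to 130.0 to 462 TPM in fasted MKO and 85.0 to 728 TPM in fasted WT muscle with none called, and the highest value was that of fasted WT replicate 4. In the same library the fast fiber markers had their lowest sum, 17800 TPM. With fasting, 3 of 5 fibroblast markers fell in MKO and 2 of 5 in WT muscle, and 1 of 4 adipocyte markers fell in each as deposited. These counts stood beside 15.8% of all genes lower in MKO and 20.7% in WT muscle. Of 5 endothelial markers, 2 fell in MKO muscle, and 1 rose and 1 fell in WT muscle. Of 3 smooth muscle markers, 1 fell in MKO and 1 rose in WT muscle, where 15.3% of all genes were higher. In fed muscle the 5 endothelial markers summed to 52.0 to 65.4 TPM in MKO and 40.9 to 51.5 TPM in WT. Of these, 2 were called higher in MKO as deposited, beside 4.87% of all genes. The 3 smooth muscle markers summed to 45.1 to 57.2 TPM in fed MKO and 28.5 to 39.6 TPM in fed WT muscle. Of these, 1 was called higher as deposited, beside the same 4.87%. Relative to the median gene, no endothelial or smooth muscle marker was called in fed muscle. With fasting on that scale, 3 fibroblast markers and 1 adipocyte marker were lower in MKO muscle. In WT muscle 2 fibroblast markers and 1 adipocyte marker were lower and 1 fibroblast marker was higher. Endothelial markers had 2 lower in each genotype and 1 higher in WT, smooth muscle markers 2 lower in MKO and 1 higher in WT. Of all genes, 22.7% were lower in MKO, and 24.6% lower and 19.9% higher in WT muscle. No marker of these lists was at 0 in all libraries of a group. Their part in the import results was not tested.

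Sequence windows of 300 bases, from 250 before to 50 after the RefSeq start, were found for 31 of the 35 genes (GRCm38.p6), and Grpel2, Timm21, Tomm40l and Tomm7 are named only. Motifs that factors of mitochondrial genes are known to bind were searched on both strands as exact letters. The ETS motif CCGGAAG, which GABPA can bind, was in 13 of the 31 windows (41.9%), beside 9.93% of all 27025 genes with a window and 20.2% of the 8968 among them that passed the filter here. The element TCAAGGTCA of estrogen-related receptors was in 1 (Timm8b), beside 0.466% of all genes and 0.301% of those tested, the NRF1 core GCGCATGCG in 1 (Timm13, 3.23% of the 31), beside 1.95% and 4.23%, and the E-box CACGTG in 6 (19.4%), beside 8.09% and 12.1%. In Timm10 an ETS motif and an E-box lie in the part of the window that is not printed. Timm22, Pam16 and Gfer held none of the 4. These are matches of letters and not sites.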

How the data were processed

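Polyadenylated RNA of 18 mouse muscles was sequenced in single reads. The authors mapped the reads to the mouse genome (GRCm38) with the CLC Genomics Workbench (version not given in the sources used here) and deposited TPM per gene, with no counts, so the depth behind each value is unknown. Further deposited columns hold the authors' own comparisons (fold changes and false discovery rates) and were not used. The labels name a different library kit and a different muscle than the paper's methods.

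The values, as log2 of TPM with 0.1 added, entered limma (version 3.58.1, R version 4.3.3, lmFit and eBayes with trend) in 1 fit of 4 group means with 14 residual degrees of freedom, two-sided, with Benjamini-Hochberg adjustment over the 12111 genes that reached 0.5 TPM in 4 or more libraries. The second scale subtracts the median log2 value of these genes in each library. Ratios of paralogs were compared by exact permutation tests. No 2 libraries held like values (smallest median difference over 153 pairs 0.116 on the log2 scale).

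Alternatives were pseudocounts of 1 or 0.01 (1 or none for the ratios), a filter of 2 TPM or none, groups fitted alone, a replicate block, each library left out, and TPM recomputed without the 37 genes of the mitochondrial genome. The import genes and lists were chosen with earlier results of these data known. Values in every library are given for up to 6 genes per comparison with the smallest adjusted p and for the central genes of each role. Other genes are given by range. Promoter sequences are those of RefSeq on GRCm38.p6, trimmed to exon-free bases, and gene spans come from the GENCODE annotation.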

Additional observations from a re-analysis of the deposited data

Results flagged for a closer look

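Of 128 groups of values tested (32 genes in 4 groups), 5 held a library far from the others of its group by Dixon's limit, where chance gives about 1 in 20 groups. Fed WT replicate 1 was high in 2 of them, with 17.64 TPM of Pmpcb (14.96 to 15.41 TPM in the other fed WT libraries) and 10.55 TPM of Timm21 (7.93 to 8.34 TPM in the others). Fed MKO replicate 3 was also high in 2, with 68.93 TPM of Samm50 (51.04 to 54.52 TPM in the other fed MKO libraries) and 4.83 TPM of Tomm40 (4.48 to 4.56 TPM in the others). Fasted MKO replicate 4 was low in Tomm40l, with 2.23 TPM (3.23 to 3.47 TPM in the other fasted MKO libraries). None of the 5 was in fasted WT replicate 4.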

How the results depend on the processing

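Gfer stayed higher in fasted MKO muscle and Timm10 higher in fasted muscle of both genotypes in every alternative run on both scales. The number of import genes called between MKO and WT was less stable. In fed muscle as deposited it was 2, beside 4.87% of all genes higher and 0.182% lower. It was 1 with no filter, beside 0.886% and 0.0789%, and 12 with the groups fitted alone (11 higher, 1 lower). For the groups fitted alone, the filter of 2 TPM and the replicate block, the share of all genes is not given here. In fasted muscle as deposited it was 18, beside 38.9% of all genes higher and 0.528% lower, but 6 with the groups fitted alone. It was 7 without the mitochondrial genome (1 higher, 6 lower), beside 1.29% and 7.01% of all genes. In that setting 13 of the 18 changed sign, among them Pmpcb (-0.09) and Timm22 (-0.02). With fasting in MKO muscle as deposited it was 5, beside 18.1% of all genes higher and 15.8% lower. It was 8 with the groups fitted alone, and 8 without the mitochondrial genome, the latter beside 13.5% and 23.5%. Relative to the median gene it was 1 instead of 2 in fed muscle with no filter, 3 instead of 1 in fasted muscle with a filter of 2 TPM, and 6 instead of 15 with fasting in WT muscle with no filter. With no filter on this scale, 0.125% of all genes were higher and 0.343% lower in fed muscle. With fasting in WT muscle these shares were 14.3% and 8.01%. With fasting in MKO muscle on that scale the number of import genes called was 10 (10 higher, none lower) instead of 7 (3 higher, 4 lower) with no filter. These 10 stood beside 18.2% of all genes higher and 6.16% lower. With no filter the median import gene lay -0.11 from that of all genes in fed muscle, against -0.20 with the filter. The causes were not tested.

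Leaving out 1 library at a time gave 1 to 9 calls between the genotypes in fed and 9 to 20 in fasted muscle as deposited, and 1 to 4 in each relative to the median gene. With fasting it gave 9 to 14 in WT and 3 to 11 in MKO muscle as deposited, and 12 to 15 in WT and 6 to 10 in MKO relative to the median gene. Without fasted WT replicate 4 these were 9 in fed and 9 in fasted muscle and 11 with fasting in MKO muscle as deposited. The share of all genes there was 32.8% higher and 0.62% lower in fed muscle, and 23.3% and 1.03% in fasted muscle. With fasting in MKO muscle it was 23.5% and 19.1%. For the other libraries left out it is not given here. The interaction stayed at 0 calls. The distance of the median import gene from all genes was -0.23 to -0.18 in fed and -0.06 to 0.02 in fasted muscle, and with fasting -0.15 to -0.02 in WT and -0.03 to 0.01 in MKO muscle. Ratios with an unadjusted p under 0.05 numbered 6 to 10.

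The replicate numbers only name the mice. Same-numbered libraries correlated between -0.142 and 0.152 in their deviations from the group means, so they were not taken as pairs. With the number as a replicate block, 1 import gene was called between the genotypes in fed and 13 in fasted muscle as deposited. Read depth is unknown, and with 4 or 5 mice per group small changes may go uncalled.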
